A study of Mus musculus with 8 samples.

Results

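The collagen genes are described here, chosen by name alone as the protein-coding genes of the GENCODE M21 annotation whose symbol is Col, a number, a and a number. There were 44 of them among the 39179 genes of the table, which is every gene that the annotation holds under that rule. RNA sequencing of whole tissue had been done in 8 mouse libraries on a C57BL6/J background. The control group was 3 libraries of small intestine from VilCreER+ mice, called wild type or controls here. The other group was 5 libraries of small intestinal adenoma from VilCreER+ APCfl/+ mice, described by the submitters as aged. Both groups carried the VilCreER transgene, a tamoxifen-activated Cre recombinase under the villin promoter, which is active in gut epithelium, and both had received tamoxifen. APCfl/+ is 1 copy of Apc that Cre can inactivate. The question the comparison addresses is how adenoma tissue differs from normal intestine. The control tissue was whole intestine per the series text, and the ages of the control mice, the number of mice behind each library and the number of adenomas in it are not stated in the labels. The p-values therefore measure the spread between these libraries.

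Collagens are proteins whose chains wind into a triple helix, and they make up much of the framework between cells. Fibrillar collagens (types I, III, V and their relatives) pack side by side into fibrils. Type IV collagen forms the sheet-like network of basement membranes, under epithelia and around vessels and muscle cells, and the remaining types decorate fibrils, form beaded filaments, anchor epithelia or stay in the cell membrane. In the intestine fibroblasts, muscle cells and vessel cells are the main sources, while epithelial cells add some basement membrane chains. The classes used were 11 fibrillar genes, 8 basement membrane genes and 25 others.

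Libraries held 18040301 to 28343915 counts, and no replicate pair was as alike as sampling noise allows. Some libraries stood apart. Xist, a transcript of the inactive X chromosome, was at 1.17 to 1.75 CPM (counts per library scaled to a common total) in the 3 wild-type libraries and adenoma 1 and at 432 to 761 CPM in adenomas 2 to 5. The Y-linked gene Ddx3y was at 70.6 to 77.5 CPM in the first 4 and at most 0.0939 CPM in the others, so 4 adenomas differed in sex from all controls. Adenoma 2 held 246 CPM of Hoxb13, a gene of the distal hindgut, where no other library passed 0.894 CPM, and 0.470 CPM of Gata4, a gene of the proximal small intestine, where the others held at least 68.4 CPM. That goes against the small intestinal label of that library. The pancreatic gene Pnlip reached 190.0 CPM in wild type 1, against 63.5 CPM in adenoma 5 and at most 0.798 CPM elsewhere. Apc itself averaged 199 CPM in the controls and 146 CPM in the adenomas (log2 fold change -0.45 ± 0.09 (SE), adjusted p = 0.00374).

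Most collagen genes differed between adenoma and normal intestine, and they did so in both directions. Of the 44 genes, 39 had enough counts to be tested and 5 did not. A gene was called where edgeR's quasi-likelihood test gave a Benjamini-Hochberg adjusted p under 0.05 over all 18345 genes tested. Called genes numbered 17 higher and 14 lower in the adenomas, which was 79.5% of the tested collagens. Of all genes tested 58.1% were called, 30.3% higher and 27.8% lower. The change passed a factor of 2 in 17 collagens, 12 of them higher, against 13.2% of all genes. In 29 collagens the 2 groups did not overlap, which was so for 56.9% of all genes. The median log2 fold change was -0.09 for the collagens and 0.04 for all genes. The sign of the collagen median was not stable: it was 0.63, 0.50 and 0.58 without wild type 1, 2 or 3, each with 41 collagens tested, and 0.83 with a filter of 5 CPM, which left 31. Since genes tested include those that passed the count filter through 1 group alone, these counts are a description. Without adenoma 2 the test called 19 collagens higher and 16 lower of 40 tested. Of all 18195 genes tested in that fit, 6184 were higher and 6092 lower. Without both wild type 1 and adenoma 5 it called 15 collagens higher and 12 lower of 41 tested. Of all 18591 genes tested there, 4146 were higher and 3798 lower.

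The 3 classes differed in their counts. Among the fibrillar genes, 7 of 10 tested rose and 1 fell, with a median log2 fold change of 1.67. Among the basement membrane genes 3 of 8 rose and 3 fell, with a median of -0.27, and each of those 6 changes passed a factor of 2. Among the other collagens 7 of 21 rose and 10 fell, with a median of -0.56. The share called was 80.0% of fibrillar, 75.0% of basement membrane and 81.0% of other collagens, against 58.1% of all genes tested. The difference between classes was not tested. The plot of fitted changes shows the basement membrane class split into an upper and a lower group with 2 genes near 0.

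**Figure D1:**
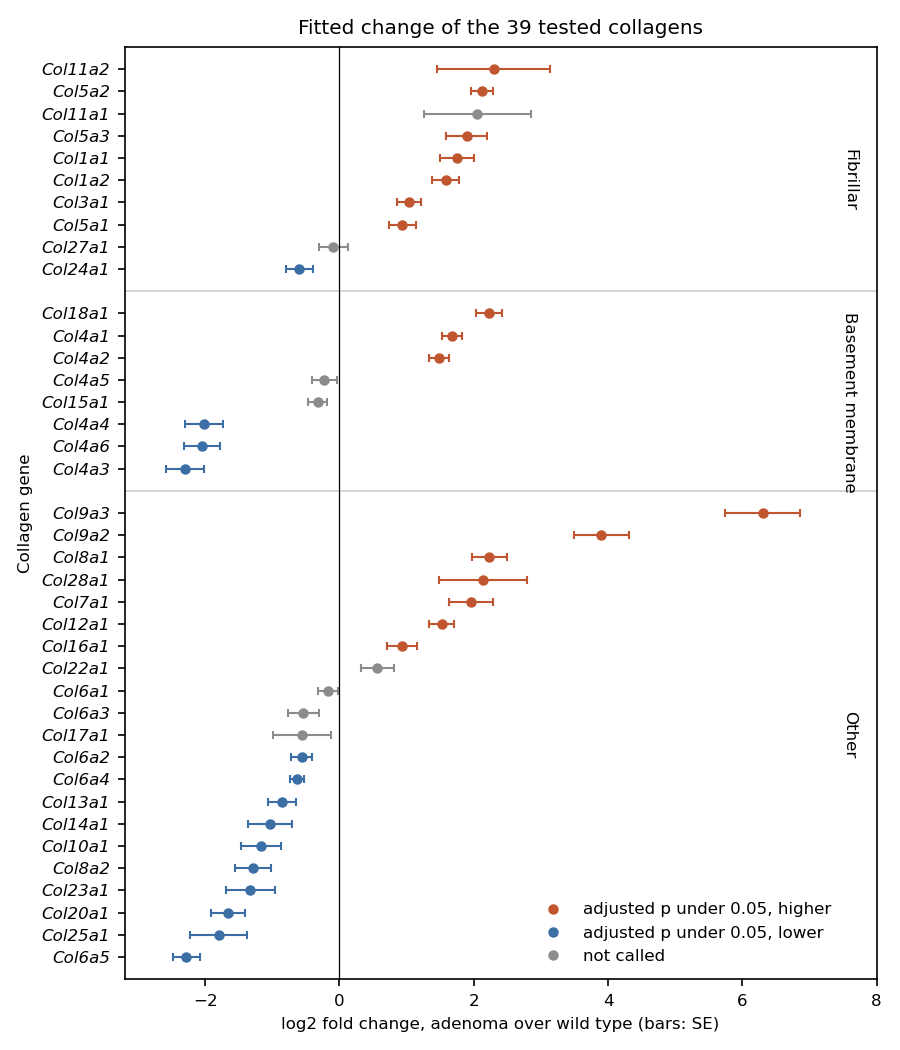
Fitted log2 fold change of adenoma over wild type for the 39 tested collagens (points) with the SE (bars), by class, from 3 wild-type and 5 adenoma libraries. The fibrillar genes lie mostly to the right, the 8 basement membrane genes split, and the largest change is that of Col9a3 at 6.30.

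The make-up of collagen mRNA shifted from type VI towards fibrillar and basement membrane chains. Summed over the 44 genes, collagens took 2494, 3205 and 2969 CPM in the wild-type libraries and 5178, 6820, 5247, 5269 and 5908 CPM in the adenomas, 1.97 times as much on average. To compare genes of unequal length, CPM was divided by the length of the principal transcript in kilobases. On that scale fibrillar genes took 41.4% ± 1.80 (SD, n = 3) of collagen mRNA in wild type and 52.8% ± 2.52 (SD, n = 5) in the adenomas. Basement membrane genes went from 18.0% ± 0.291 to 27.3% ± 1.67, and all others from 40.6% ± 1.51 to 19.9% ± 1.47. Type VI alone held 32.2% ± 0.358 in wild type and 12.2% ± 1.28 in the adenomas. No adenoma overlapped a wild-type library in any of these shares. Because the shares sum to 100%, a rise of 1 class lowers the others: the summed CPM of the other collagens was 1156 ± 100.5 in wild type and 1136 ± 148 in the adenomas, a ratio of 0.983.

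**Figure D2:**
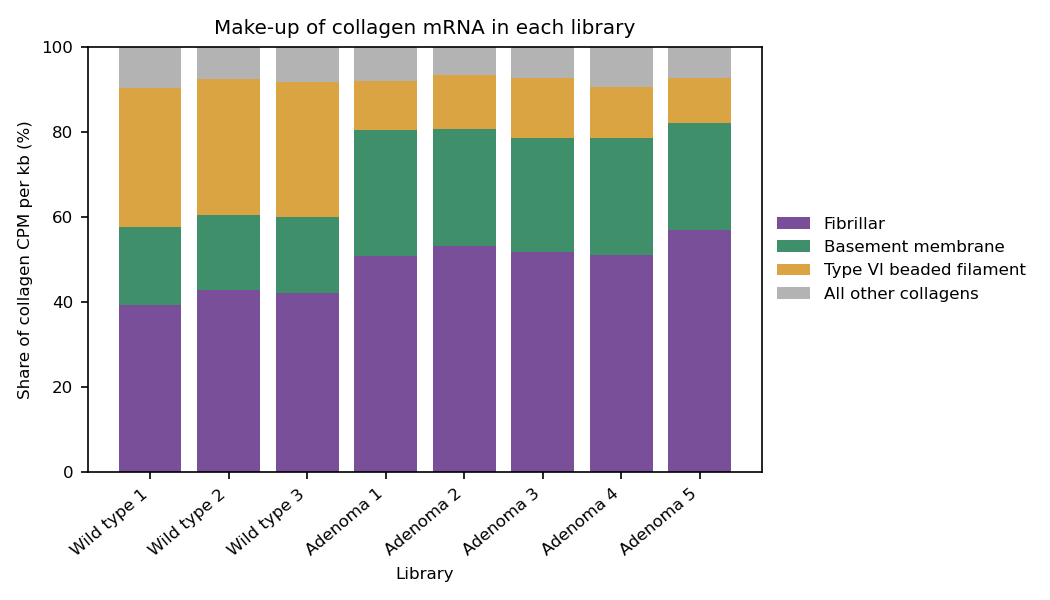
Share of collagen CPM per kilobase (percent, vertical axis) held by 4 groups of collagen genes in each of the 8 libraries (bars). Type VI is near 32.2% in the wild-type libraries and near 12.2% in the adenomas, with every adenoma below every wild-type library.

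Col3a1 was the most abundant collagen per kilobase in both tissues, at 115 ± 18.8 CPM per kilobase in wild type and 236 ± 34.7 in the adenomas. Behind it in wild type came Col6a1 with 53.9 ± 6.80, Col6a2 with 46.9 ± 7.69, Col1a2 with 40.8 ± 9.05 and Col4a1 with 39.3 ± 5.15, whose neighbouring levels lay within their spread. In the adenomas Col4a1 (125 ± 12.9) and Col1a2 (122 ± 20.4) came next and could not be put in order, followed by Col1a1 (75.3 ± 12.4), Col4a2 (65.2 ± 9.07) and Col18a1 (64.0 ± 9.64). Col6a1 dropped from rank 2 to rank 7 and Col6a2 from rank 3 to rank 9, with levels per kilobase of 48.0 ± 7.79 and 31.7 ± 4.81 in the adenomas. Col18a1 went from rank 11 to rank 6.

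**Figure D3:**
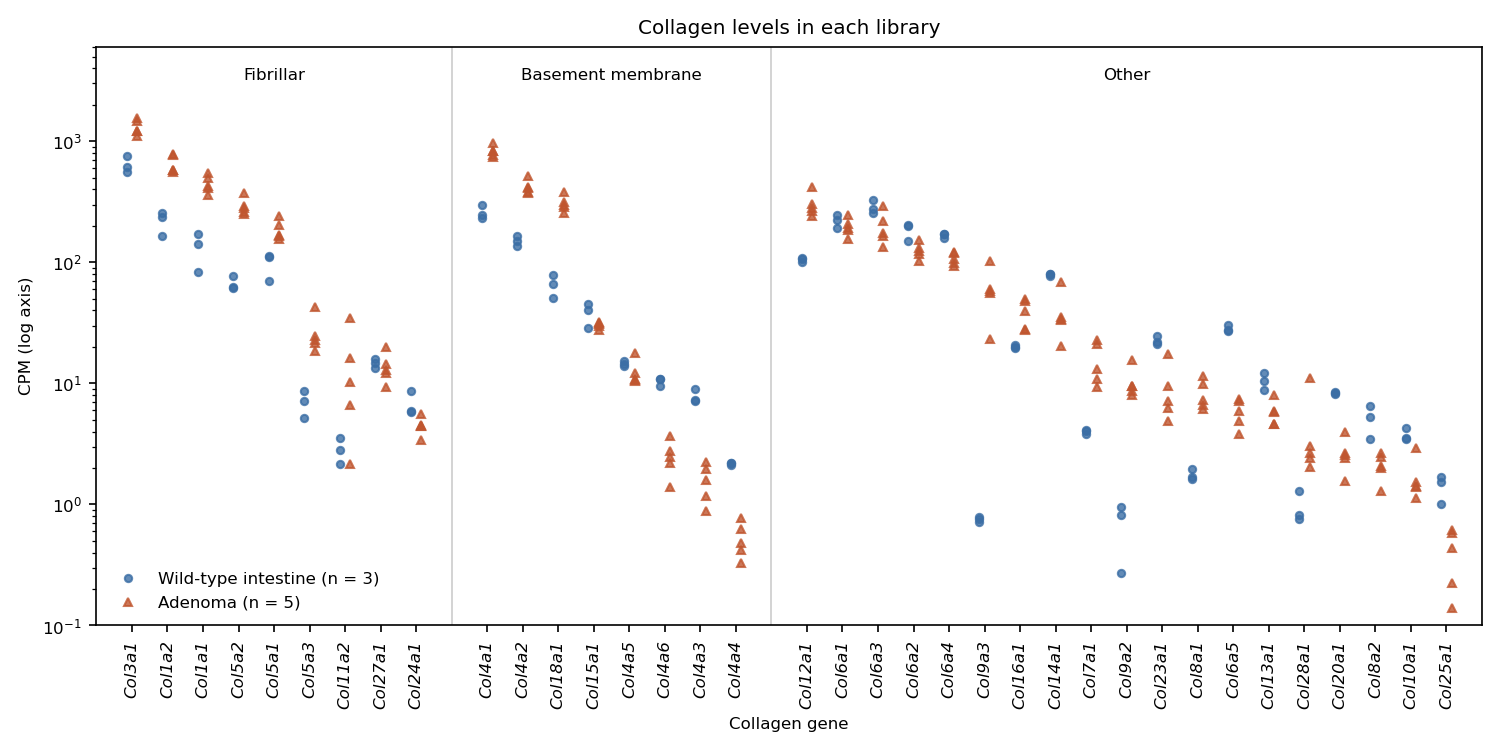
Level of the 36 collagens described library by library, in CPM on a log axis, with wild-type libraries as circles and adenomas as triangles. Genes are ordered within each class by their adenoma mean, and levels run from 1566 CPM for Col3a1 down to 0.140 CPM for Col25a1.

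The main fibril collagens of the gut wall rose. Col1a1 (chr11:94936224-94953042, GRCm38), which encodes the α1 chain of type I collagen, had 83.7, 143 and 171 CPM among the controls and 424, 497, 411, 358 and 543 CPM among the adenomas. Every adenoma was at least 2 times as high as the highest control (log2 fold change 1.75 ± 0.25 (SE), adjusted p = 0.000519). Col1a2 (chr6:4504814-4541544), the α2 chain of the same molecule, had 163, 237 and 255 CPM in control tissue against 578, 777, 561, 582 and 767 CPM in adenomas 1 to 5. It rose by a like amount (log2 fold change 1.58 ± 0.20 (SE), adjusted p = 0.000312), with wild type 1 the lowest library for both chains. Col3a1 (chr1:45311538-45349706), the chain of type III collagen, which joins type I in the fibrils of stretchable tissues, had 553, 755 and 607 CPM in the 3 control libraries and 1105, 1566, 1216, 1208 and 1458 CPM in the 5 adenomas. Its rise had a smaller fitted size (log2 fold change 1.04 ± 0.18 (SE), adjusted p = 0.00135), and the groups did not overlap.

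The type V chains, which start fibrils and limit their width, also rose. Col5a2 lies beside Col3a1 on chromosome 1 (chr1:45374321-45503282) on the other strand. It had 60.9, 76.8 and 62.7 CPM among the controls and 261, 371, 253, 283 and 292 CPM among the adenomas. This was the steepest well-supported rise among the fibrillar genes (log2 fold change 2.13 ± 0.16 (SE), adjusted p = 3.21e-05). Col5a1, its usual partner chain, had 70.5, 112 and 111 CPM in control tissue against 157, 240.3, 169, 166 and 202 CPM in adenomas 1 to 5, a smaller rise (log2 fold change 0.94 ± 0.20 (SE), adjusted p = 0.00412). Col5a3, a chain found in a rarer form of type V, had 5.14, 8.64 and 7.20 CPM in the 3 control libraries and 18.6, 42.7, 22.8, 24.4 and 21.6 CPM in the 5 adenomas. The rise held in every adenoma, and adenoma 2 was the highest (log2 fold change 1.90 ± 0.31 (SE), adjusted p = 0.00106).

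The lesser fibrillar genes did not share 1 direction. Col11a2, a chain of type XI collagen known from cartilage, had 3.51, 2.17 and 2.84 CPM among the controls and 6.57, 2.16, 10.2, 34.8 and 16.1 CPM among the adenomas. Adenoma 2 lay below the controls while adenoma 4 was far above the rest, and the call was marginal (log2 fold change 2.29 ± 0.84 (SE), adjusted p = 0.046). Without adenoma 4 the log2 fold change was 1.62 with an adjusted p = 0.0602, and leaving out any of wild type 1, 2 or 3, adenoma 3 or adenoma 5 also ended the call, with adjusted p over all such fits from 0.0134 to 0.128. Col24a1, a minor fibrillar collagen, had 5.75, 5.91 and 8.62 CPM in control tissue against 4.43, 5.59, 4.56, 3.37 and 4.43 CPM in adenomas 1 to 5. It was called lower (log2 fold change -0.59 ± 0.21 (SE), adjusted p = 0.0338), but not without wild type 3 (log2 fold change -0.38, adjusted p = 0.175) or without adenoma 1, 3, 4 or 5 (adjusted p up to 0.0605). Col27a1 had 15.9, 13.4 and 14.7 CPM in the 3 control libraries and 9.32, 20.1, 14.3, 12.8 and 12.2 CPM in the 5 adenomas, with adenomas on both sides of the controls (log2 fold change -0.09 ± 0.22 (SE), adjusted p = 0.734). Col11a1 stayed at or below 1.07 CPM and Col2a1, the cartilage collagen, at or below 0.892 CPM in every library. Col11a1 was not called (adjusted p = 0.0515) and Col2a1 was not tested.

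Of the 6 type IV genes 2 rose, 3 fell and 1 was not called (83.3% called, against 58.1% of all genes tested). They lie as 3 head-to-head pairs, each pair read outward from a shared stretch of DNA, and the proteins combine into 3 known trimers, of Col4a1 with Col4a2, of Col4a3 with Col4a4 and Col4a5, and of Col4a5 with Col4a6. Col4a1 (chr8:11198423-11312826) and Col4a2 (chr8:11312805-11449287), on opposite strands of chromosome 8, are the chains found in nearly all basement membranes. Their annotated starts overlap by 22 bases. The principal starts of Col4a4 and Col4a3 on chromosome 1 lie 127 bases apart, and those of Col4a6 and Col4a5 on the X chromosome 1309 bases apart. For the latter pairs the stretches before the starts are shown, since 1 pair fell together and the other did not; they are from RefSeq on GRCm38.p6, each on the strand of its gene. The stretch before Col4a4 (chr1:82586850-82586920, minus strand) is the whole gap between the genes Col4a4 and Col4a3. Capitals mark a match to GGGCGG in the Col4a6 stretch (chrX:141474077-141474326, minus strand), read there from the other strand as CCGCCC, and a match to CCAAT in the Col4a5 stretch (chrX:141475169-141475384, plus strand), which ends 35 bases before the RefSeq start.
Col4a4: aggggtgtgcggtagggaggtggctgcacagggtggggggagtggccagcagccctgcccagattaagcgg
Col4a6: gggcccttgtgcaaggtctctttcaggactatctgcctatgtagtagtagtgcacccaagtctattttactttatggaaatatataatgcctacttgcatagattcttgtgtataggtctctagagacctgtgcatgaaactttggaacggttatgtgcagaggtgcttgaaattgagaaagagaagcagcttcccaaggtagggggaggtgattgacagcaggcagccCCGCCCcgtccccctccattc
Col4a5: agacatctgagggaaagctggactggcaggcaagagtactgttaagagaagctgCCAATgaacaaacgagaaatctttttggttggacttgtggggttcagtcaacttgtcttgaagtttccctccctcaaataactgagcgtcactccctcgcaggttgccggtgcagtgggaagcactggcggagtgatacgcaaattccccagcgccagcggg

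In promoter windows from 250 bases before to 50 bases after each RefSeq start, 35 of the 44 collagens had at least 1 window, 38 windows in all. GGGCGG, the GC box, on either strand, was in 23 of the 38 (60.5%) and in 35.7% of the 32851 windows of all genes. CCAAT was in 13 of the 38 (34.2%) and in 37.4% of all windows, and TATAAA in 5 (13.2%) and 13.6%. A GGGCGG and a CCAAT match can share bases. A match is a string of letters in the window and nothing more is read from it.

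Col4a1 had 234, 298 and 247 CPM among the controls and 829.3, 964, 741, 772 and 824 CPM among the adenomas. All adenomas were above 2 times the highest control (log2 fold change 1.67 ± 0.15 (SE), adjusted p = 5.65e-05). Col4a2 followed it, with 137, 164 and 151 CPM in control tissue against 408, 519.5, 376, 379 and 421 CPM in adenomas 1 to 5 (log2 fold change 1.48 ± 0.14 (SE), adjusted p = 8.65e-05). Together these 2 genes held 12.8% ± 0.734 of collagen CPM per kilobase in wild type and 19.8% ± 1.12 in the adenomas.

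The chains of the more restricted networks were scarcer and 3 of 4 fell. Col4a3 had 7.13, 7.25 and 9.002 CPM in the 3 control libraries and 0.886, 1.60, 2.23, 1.17 and 1.96 CPM in the 5 adenomas (log2 fold change -2.30 ± 0.28 (SE), adjusted p = 0.000251). Col4a4, its head-to-head neighbour, had 2.19, 2.12 and 2.18 CPM among the controls and 0.326, 0.423, 0.626, 0.476 and 0.779 CPM among the adenomas (log2 fold change -2.01 ± 0.28 (SE), adjusted p = 0.00046). The adenoma values of Col4a4 rest on 7 to 23 counts per library and those of Col4a3 on 19 to 58. Col4a6, whose network with Col4a5 is known from basement membranes around smooth muscle, had 9.52, 10.9 and 10.8 CPM in control tissue against 1.40, 2.77, 2.19, 2.46 and 3.69 CPM in adenomas 1 to 5 (log2 fold change -2.05 ± 0.26 (SE), adjusted p = 0.000306). All adenomas were below all controls for these 3 genes. Col4a5, on the opposite strand, had 15.2, 14.4 and 13.8 CPM in the 3 control libraries and 10.7, 10.9, 10.5, 12.2 and 17.7 CPM in the 5 adenomas and was not called (log2 fold change -0.22 ± 0.18 (SE), adjusted p = 0.317). Adenoma 5 alone exceeded the controls, and without it Col4a5 was called lower with a log2 fold change of -0.39 (adjusted p = 0.0209). Col4a5 and Col4a6 are X-linked, and with the Xist pattern as a covariate the log2 fold change of Col4a6 was -2.89 (adjusted p = 0.00277). With libraries scaled to equal smooth muscle markers, which were themselves lower in the adenomas (summed 983 to 1735 CPM in controls, 438 to 1081 CPM in adenomas), the log2 fold change of Col4a6 was -1.07 (adjusted p = 0.0212). That scaling moved all genes alike, their median going from 0.04 to 1.08. The part of smooth muscle in the fall of Col4a6 was not tested. The 4 genes together went from 34.8 ± 0.876 CPM to 17.0 ± 4.16 CPM.

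The basement membrane class also holds the multiplexins, which carry sugar chains and release fragments known to restrain vessel growth. Col18a1 (chr10:77052178-77166548), the source of endostatin, had 50.3, 66.7 and 79.2 CPM among the controls and 299.9, 379, 284, 316 and 255 CPM among the adenomas. It rose in all adenomas to at least 3 times the highest control (log2 fold change 2.23 ± 0.19 (SE), adjusted p = 4.84e-05). Col15a1, its relative in the zone next to basement membranes, had 28.6, 40.3 and 44.8 CPM in control tissue against 27.5, 29.6, 30.9, 31.3 and 31.9 CPM in adenomas 1 to 5 and was not called (log2 fold change -0.33 ± 0.14 (SE), adjusted p = 0.0729). Wild type 1 was the only control within the adenoma range, and without it Col15a1 was called lower with a log2 fold change of -0.49 (adjusted p = 0.00478).

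Type VI collagen, which forms beaded filaments between cells and fibrils, had 3 of 5 tested genes called lower and none higher. That share called, 60.0%, was near the 58.1% of all genes tested. Its basic molecule joins Col6a1 and Col6a2 with a further chain, mostly Col6a3. Col6a1 (chr10:76708792-76726168) had 192, 248 and 222 CPM in the 3 control libraries and 157, 244, 207, 184 and 193 CPM in the 5 adenomas, with overlapping groups (log2 fold change -0.17 ± 0.15 (SE), adjusted p = 0.37). Col6a2, its neighbour on chromosome 10, had 150.3, 204 and 201 CPM among the controls and 102, 154, 130.1, 117 and 123 CPM among the adenomas. It was called lower although adenoma 2 exceeded wild type 1 (log2 fold change -0.56 ± 0.15 (SE), adjusted p = 0.0119), and leaving out wild type 2 (adjusted p = 0.0541) or wild type 3 (adjusted p = 0.0531) ended the call. Col6a3 had 254, 325 and 275 CPM in control tissue against 175, 289, 219, 164 and 133 CPM in adenomas 1 to 5. It was not called (log2 fold change -0.54 ± 0.23 (SE), adjusted p = 0.0748), and without adenoma 2, the highest adenoma, it was called lower at -0.73 (adjusted p = 0.00303).

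The genes that can take the place of Col6a3 lie in a row on chromosome 9, and the 2 that were tested fell. Col6a4 had 158, 171 and 171 CPM in the 3 control libraries and 121, 93.2, 119.5, 106 and 98.0 CPM in the 5 adenomas (log2 fold change -0.63 ± 0.11 (SE), adjusted p = 0.00126). Col6a5 had 27.0, 27.5 and 30.4 CPM among the controls and 4.89, 7.37, 5.85, 3.85 and 7.11 CPM among the adenomas. No adenoma came above 7.37 CPM, and this was the clearest fall in the type (log2 fold change -2.28 ± 0.20 (SE), adjusted p = 5.22e-05). The last of them, Col6a6, was at most 0.466 CPM and was not tested.

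Collagens that sit on the surface of fibrils, the FACIT group, had 4 rising and 2 falling genes among 7 tested. The share called was 85.7%, against 58.1% of all genes tested. Col9a3 (chr2:180597790-180622189), a chain of type IX collagen known from cartilage, showed the largest change of any collagen. It had 0.764, 0.780 and 0.709 CPM in wild type, from 13 to 15 counts per library, and 60.5, 23.2, 55.4, 102 and 57.6 CPM in the adenomas. That is a fitted 78.9-fold rise (log2 fold change 6.30 ± 0.56 (SE), adjusted p = 7.68e-05), with adenoma 4 the highest and adenoma 2 the lowest. Of its exon bases 6.07% are shared with the neighbouring gene Tcfl5, and Tcfl5 was at most 0.140 CPM in any library. Col9a2, a second chain of the molecule, had 0.815, 0.947 and 0.273 CPM in control tissue against 9.51, 7.94, 8.62, 15.6 and 9.44 CPM in adenomas 1 to 5, again without overlap (log2 fold change 3.90 ± 0.41 (SE), adjusted p = 0.000122). Col9a1, the remaining chain, had 0.102 to 0.167 CPM among the controls and 0.235 to 0.994 CPM among the adenomas, too few counts to be tested.

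Col12a1 and Col14a1, which both bind type I fibrils, moved in opposite directions. Col12a1 (chr9:79598991-79718831) had 100.4, 106 and 108 CPM in the 3 control libraries and 302, 417, 282, 264 and 240.2 CPM in the 5 adenomas (log2 fold change 1.52 ± 0.18 (SE), adjusted p = 0.000231). Col14a1 (chr15:55307750-55520803) had 76.4, 79.4 and 80.0 CPM among the controls and 34.1, 20.3, 33.3, 35.1 and 68.8 CPM among the adenomas. All adenomas lay below the tightly grouped controls, yet adenoma 5 came near them (log2 fold change -1.03 ± 0.32 (SE), adjusted p = 0.0248). Its call was lost on leaving out any of wild type 1, 2 or 3 or adenoma 1 or 4, with adjusted p up to 0.0669. Col16a1, another FACIT, had 19.9, 20.9 and 19.6 CPM in control tissue against 27.9, 47.6, 27.8, 49.5 and 39.3 CPM in adenomas 1 to 5, a rise without overlap (log2 fold change 0.93 ± 0.22 (SE), adjusted p = 0.00605). The call was lost with fibroblast scaling (0.58, adjusted p = 0.0529), pan-epithelial scaling (0.64, adjusted p = 0.172) and the Xist covariate (0.47, adjusted p = 0.236). Col20a1 had 8.25, 8.53 and 8.13 CPM in the 3 control libraries and 2.56, 3.94, 2.68, 1.56 and 2.40 CPM in the 5 adenomas, a fall (log2 fold change -1.66 ± 0.25 (SE), adjusted p = 0.000729). Col22a1 was not called (2.29 to 2.75 CPM in wild type, 2.42 to 5.02 CPM in adenoma), and Col19a1 was at most 0.218 CPM and not tested.

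The 4 network-forming and anchoring collagens were all called, in equal numbers each way, where 58.1% of all genes tested were called. Col7a1, which builds the anchoring fibrils that tie epithelium to stroma, had 3.82, 4.01 and 4.09 CPM among the controls and 9.32, 22.9, 13.1, 10.8 and 21.3 CPM among the adenomas. Adenomas 2 and 5 were highest and no adenoma overlapped the controls (log2 fold change 1.96 ± 0.33 (SE), adjusted p = 0.00129). Col8a1, a chain of the short network collagen type VIII, had 1.68, 1.62 and 1.96 CPM in control tissue against 7.22, 9.81, 6.17, 6.57 and 11.4 CPM in adenomas 1 to 5, a rise (log2 fold change 2.23 ± 0.26 (SE), adjusted p = 0.000189). Col8a2, the other chain of that type, had 6.52, 5.29 and 3.49 CPM in the 3 control libraries and 2.00, 2.44, 2.64, 1.30 and 2.06 CPM in the 5 adenomas, a fall (log2 fold change -1.29 ± 0.27 (SE), adjusted p = 0.00387). Each of the 2 moved without overlap. Col10a1, known from growth plate cartilage, had 3.56, 4.24 and 3.49 CPM among the controls and 1.54, 2.91, 1.39, 1.12 and 1.42 CPM among the adenomas, also lower in every adenoma (log2 fold change -1.17 ± 0.30 (SE), adjusted p = 0.0099).

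The 4 membrane-spanning collagens held 3 genes that fell and none that rose (75.0% called, against 58.1% of all genes tested). Col23a1 had 21.3, 21.8 and 24.8 CPM in control tissue against 6.25, 17.4, 7.15, 4.93 and 9.44 CPM in adenomas 1 to 5, with adenoma 2 closest to the controls (log2 fold change -1.32 ± 0.37 (SE), adjusted p = 0.0141). Col13a1, which is found at sites of cell adhesion, had 12.2, 8.86 and 10.4 CPM in the 3 control libraries and 4.61, 4.60, 5.81, 5.92 and 7.95 CPM in the 5 adenomas (log2 fold change -0.86 ± 0.21 (SE), adjusted p = 0.00683). Col25a1 had 1.53, 1.00 and 1.69 CPM among the controls and 0.140, 0.610, 0.223, 0.432 and 0.575 CPM among the adenomas, the latter from 3 to 17 counts (log2 fold change -1.80 ± 0.43 (SE), adjusted p = 0.00676). In all 3 the adenomas were below the controls. Col17a1, a part of hemidesmosomes, was not called (2.62 to 4.84 CPM in wild type, 1.51 to 4.79 CPM in adenoma). Outside these groups, Col28a1 had 0.764, 1.28 and 0.818 CPM in control tissue against 3.03, 11.0, 2.41, 2.68 and 2.03 CPM in adenomas 1 to 5. It rose (log2 fold change 2.14 ± 0.66 (SE), adjusted p = 0.0224), adenoma 2 was far above the other adenomas, and without that library the log2 fold change was 1.40 (adjusted p = 0.0012). Leaving out wild type 1 (adjusted p = 0.0783) or wild type 3 (adjusted p = 0.0757) ended the call. Col26a1 was at most 0.186 CPM and not tested.

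Ratios between 2 chains within a library do not depend on how libraries are scaled. There were 10 such pairs, and 9 were tested by a two-sided exact permutation test over the 8 libraries, whose smallest possible p was 0.0357. The ratio of Col8a1 to Col8a2 differed most, from a mean log2 ratio of -1.74 ± 0.592 (SD, n = 3) to 1.74 ± 0.488 (SD, n = 5), an 11.1-fold difference, so that Col8a2 was the more abundant chain in every control and Col8a1 in every adenoma. The ratio of Col4a5 to Col4a6 went from 0.505 ± 0.173 to 2.37 ± 0.352, a 3.65-fold difference. The log2 ratio of Col5a1 to Col5a2 went from 0.184 ± 0.303, with Col5a2 the more abundant in wild type 1 and Col5a1 in the other controls, to -0.990 ± 0.101. The excess of Col3a1 over Col1a1 shrank from 2.41 ± 0.456 to 1.65 ± 0.156. Smaller shifts were seen for Col6a3 over Col6a1 (-0.767 ± 0.0511 to -1.18 ± 0.314), Col6a1 over Col6a2 (0.205 ± 0.107 to 0.595 ± 0.0195) and Col4a1 over Col4a2 (0.744 ± 0.0757 to 0.942 ± 0.0547). For these 7 pairs the groups did not overlap and the exact p was 0.0357 each, 0.0459 after Benjamini-Hochberg adjustment over 9 pairs. Each such p is the smallest the test can give. For Col8a1 over Col8a2 no other p was possible, since the 2 genes had each separated the groups, in opposite directions. The test of that pair adds nothing to the calls of its genes.

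The ratio of the type I chains was not shown to differ. Col1a1 over Col1a2 had a mean log2 ratio of -0.905 ± 0.199 in wild type and -0.697 ± 0.118 in the adenomas, with overlap (exact permutation p = 0.143, adjusted p = 0.161). Col4a1 over Col1a1, which sets the basement membrane network beside the main fibril, was 0.866 ± 0.480 and 0.740 ± 0.189 (exact permutation p = 0.571). Col4a3 over Col4a4 was 2.08 ± 0.180 and 1.81 ± 0.291 and was not tested, since 1 library held only 7 counts of Col4a4. With any 1 control left out no p below 0.0952 is possible, and with any 1 adenoma left out none below 0.0571.

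**Figure D4:**
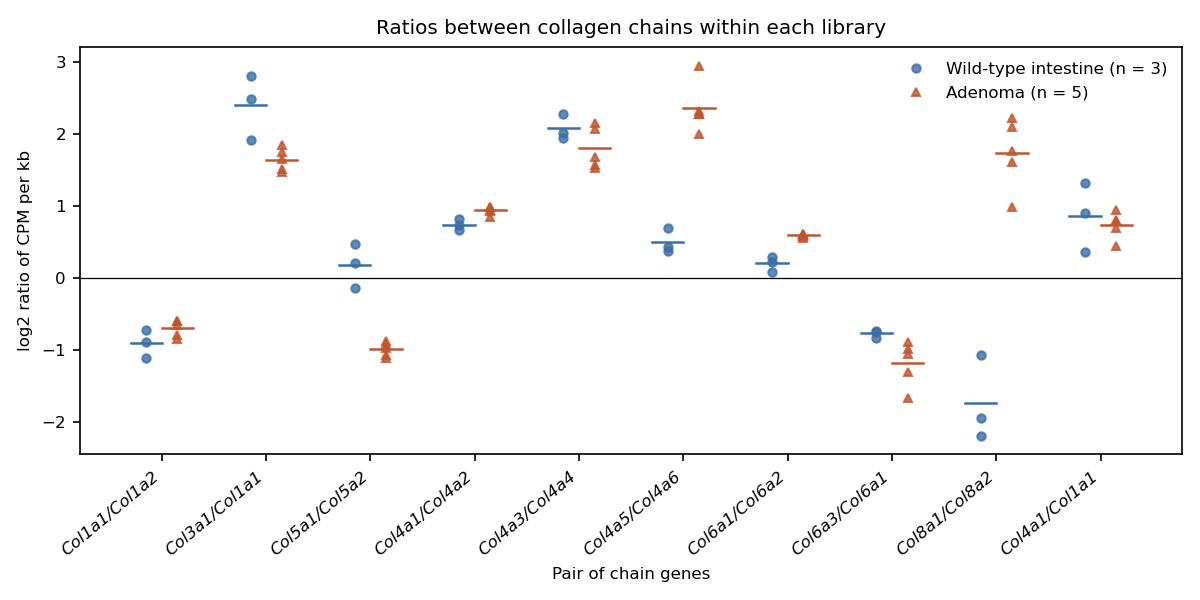
log2 ratio of CPM per kilobase for 10 pairs of collagen chains in each library (circles wild type, triangles adenoma) with the group means (lines). Col8a1 over Col8a2 crosses 0 between the groups, from -1.74 to 1.74, while Col1a1 over Col1a2 overlaps.

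Genes that make and finish collagen mostly rose. Of 19 genes for folding, hydroxylation and sugar addition, 14 rose and 1 fell, with a median log2 fold change of 1.17. The share called was 78.9%, against 58.1% of all genes tested, of which 30.3% were higher and 27.8% lower. P4ha2, a prolyl hydroxylase subunit, went from 2.50, 3.46 and 2.84 CPM in wild type to 27.1, 14.3, 17.9, 25.2 and 19.6 CPM in adenoma (log2 fold change 2.83 ± 0.25 (SE), adjusted p = 5.45e-05). P3h4 and Crtap, which help modify collagen prolines and lysines, rose by 1.66 ± 0.12 (SE), adjusted p = 2.85e-05, and by 1.17 ± 0.12 (SE), adjusted p = 9.27e-05, on the log2 scale, and Fkbp10, a collagen chaperone, by 1.46 ± 0.14 (SE), adjusted p = 7.88e-05. Colgalt2, which adds galactose to collagen, was the 1 gene called lower (log2 fold change -0.70 ± 0.26 (SE), adjusted p = 0.0417), a call lost on leaving out any of the 3 controls or adenoma 1, 3 or 4, with adjusted p up to 0.111.

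Of 13 tested genes for trimming and cross-linking, 7 rose and 2 fell, with a median of 0.55. The share called was 69.2%, against 58.1% of all genes tested. Lox, the enzyme that cross-links fibrils through lysine, had 2.29, 3.62 and 2.89 CPM in the 3 control libraries and 33.4, 78.9, 31.6, 36.8 and 45.4 CPM in the 5 adenomas, at least 8 times the highest control in every adenoma (log2 fold change 3.95 ± 0.39 (SE), adjusted p = 0.000102). Loxl2, a relative that acts on type IV collagen, went from 5.35, 5.57 and 6.49 CPM to 18.6, 21.4, 17.1, 18.0 and 13.9 CPM (log2 fold change 1.62 ± 0.16 (SE), adjusted p = 8.85e-05). Adamts2, which cuts the amino-terminal propeptide from fibrillar collagens, rose by 1.88 ± 0.23 (SE), adjusted p = 0.000238, and Pxdn, which makes the sulfilimine links of type IV collagen, by 0.92 ± 0.15 (SE), adjusted p = 0.00114, on the log2 scale. Adamts14, another propeptide protease, was called lower (log2 fold change -0.88 ± 0.30 (SE), adjusted p = 0.0309), and lost that call without wild type 2 or 3 or adenoma 1, 4 or 5, with adjusted p up to 0.115.

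Partners of fibrils were less uniform, with 2 of 9 tested genes higher and 1 lower and a median of 0.77. Their share called, 33.3%, was below the 58.1% of all genes tested. Dcn, the proteoglycan decorin, rose (log2 fold change 1.14 ± 0.14 (SE), adjusted p = 0.000277), as did Sparc, a collagen-binding protein of the matrix (log2 fold change 1.51 ± 0.14 (SE), adjusted p = 5.77e-05). Tnxb, tenascin X, which stabilises fibrils, went from 108, 100.3 and 106 CPM in wild type to 12.4, 41.1, 28.2, 13.0 and 24.9 CPM in adenoma (log2 fold change -2.13 ± 0.37 (SE), adjusted p = 0.00187). Among 9 tested receptors 4 rose and 3 fell (77.8% called), with a median of 0.03. Ddr1, a collagen-activated kinase of epithelial cells, had 49.1, 55.8 and 54.5 CPM among the controls and 133, 145, 129, 159.8 and 145 CPM among the adenomas (log2 fold change 1.42 ± 0.10 (SE), adjusted p = 2.29e-05). The integrin chains Itga2 and Itgb1, which pair as a collagen receptor, rose by 0.67 ± 0.11 (SE), adjusted p = 0.00103, and by 0.62 ± 0.10 (SE), adjusted p = 0.000929, while Lair1, an inhibitory collagen receptor of leukocytes, fell (log2 fold change -0.94 ± 0.11 (SE), adjusted p = 0.000208).

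Markers of the cell types that make collagen were measured beside it, and in whole tissue fewer cells of a type cannot be told apart from less RNA per cell. Of 10 fibroblast markers 5 rose and 3 fell, and their summed level was 650.0 to 697 CPM in controls and 840.4 to 901 CPM in adenomas, with Dcn, also counted among the fibril partners, and Gsn the most abundant. The falling genes of that list included the abundant Fbln1 (log2 fold change -1.32 ± 0.17 (SE), adjusted p = 0.000298). Fbln1 had 204, 155 and 181 CPM in controls and 67.4, 50.7, 79.1, 85.7 and 78.6 CPM in adenomas 1 to 5. Clec3b and C7 fell as well, and were at or below 0.846 and 1.61 CPM in the adenomas. Of 10 smooth muscle markers none rose and 6 fell, with sums of 983 to 1735 CPM and 438 to 1081 CPM, and the leading gene Myh11 went from 699, 777 and 422 CPM to 141, 295, 244, 103 and 224 CPM. Acta2, the next most abundant, was not called (adjusted p = 0.239). Of 8 endothelial markers 5 rose and none fell (165 to 180.1 CPM and 266 to 324 CPM), led by Vwf and Pecam1. Of 6 pericyte markers 2 rose and 1 fell (262 to 343 CPM and 336 to 371 CPM), led by Rgs5 and Pdgfrb. Of 8 pan-epithelial markers 5 rose and 1 fell (5829.5 to 6669.8 CPM and 5414 to 9662 CPM), the falling gene being Vil1, from a mean of 2047 to 742 CPM. The share of each list called was 80.0% for fibroblast, 60.0% for smooth muscle, 62.5% for endothelial, 50% for pericyte and 75.0% for pan-epithelial markers, against 58.1% of all genes tested, so the smooth muscle, endothelial and pericyte shares were near that background. No marker of these 5 lists was at 0 in any library. The part of these cell types in the collagen changes was not tested.

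Less abundant sources were also measured. The share of tested markers called was 83.3% for enteric glia, 66.7% for enteric neurons, 66.7% for mesothelium and 62.5% for leukocytes. Of all genes tested it was 58.1%. Enteric glia had 1 of 6 markers higher and 4 lower, with sums of 479.8 to 590.3 CPM in controls and 228 to 388 CPM in adenomas that were nearly all Erbb3. Enteric neurons, led by Ret and Snap25, had 1 of 6 higher and 3 lower (21.8 to 24.1 CPM and 20.1 to 30.7 CPM). Of 3 tested mesothelial markers Msln was higher and Upk1b lower (6.47 to 23.9 CPM and 14.6 to 38.4 CPM for the list). Msln alone raised that sum, at 0.613 to 8.20 CPM in controls and 12.2 to 34.3 CPM in adenomas. The other members had lower means in adenomas than in controls. The means went from 5.26 to 2.78 CPM for Upk1b and from 3.25 to 1.03 CPM for Upk3b. They went from 2.33 to 0.204 CPM for Lrrn4 and from 0.982 to 0.136 CPM for Wt1. Upk3b was not called, and Lrrn4 and Wt1 were not tested. In wild type 2 Upk3b, Lrrn4 and Wt1 were at 0.167, 0.502 and 0.111 CPM. Leukocyte markers, led by Lyz2 and Ptprc, had 5 of 8 lower and none higher (337 to 501 CPM and 207 to 517 CPM), and Cd3e, which defines T cells, was at most 0.643 CPM in the adenomas. None of 7 tested pancreatic genes was called. The list summed to 3.12 to 949 CPM in controls and 58.1 to 789 CPM in adenomas, with Pnliprp1 and Ctrb1 the most abundant. In adenomas 1 to 4 Pnliprp1 held 56.8, 92.3, 86.1 and 130.5 CPM. Every other gene of the list was at most 0.892 CPM in those libraries. Only pancreatic genes, among these lists, were at 0 in a library.

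**Figure D5:**
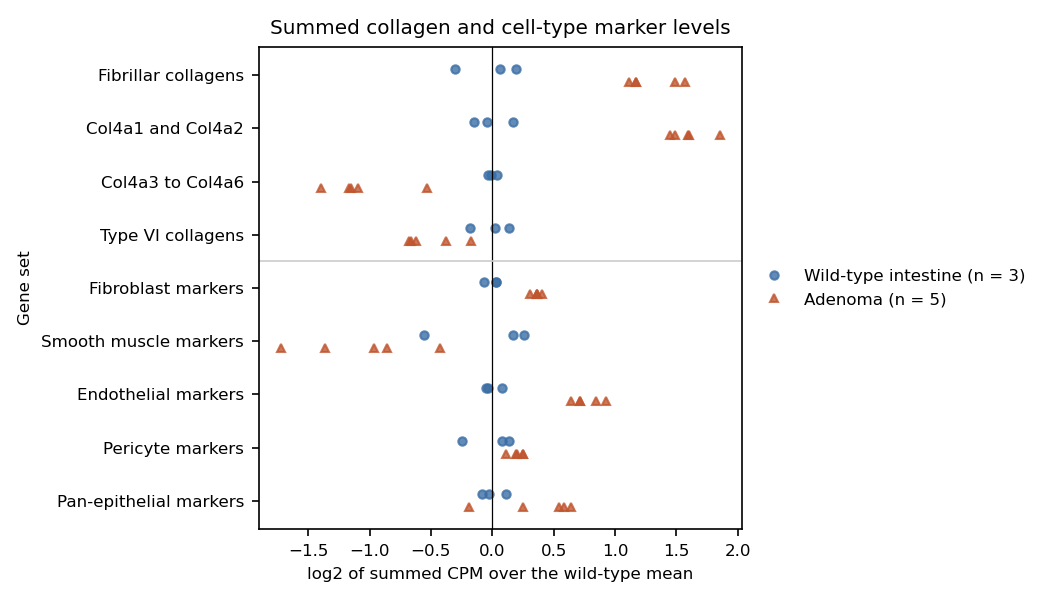
Summed CPM of 4 collagen groups and 5 marker lists in each library, as log2 of the ratio to the wild-type mean (circles wild type, triangles adenoma). Fibrillar collagens and Col4a1 with Col4a2 lie further right than fibroblast or endothelial markers in every adenoma, and Col4a3 to Col4a6 and the smooth muscle markers lie left of 0 in every adenoma.

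The number of lower calls depended on how libraries were scaled. Scaling to equal fibroblast markers shifted the median of all genes to -0.32 and left 15 collagens higher and 18 lower, and scaling to equal pan-epithelial markers shifted it to -0.30 and left 12 higher and 13 lower. Scaling to equal smooth muscle markers shifted it to 1.08 and left 19 higher and 4 lower, the latter being Col4a3, Col4a4, Col4a6 and Col6a5. All genes then split into 9807 higher and 1068 lower, against 5558 and 5099 as reported, 2843 and 7724 with fibroblast scaling, and 1682 and 5272 with pan-epithelial scaling. Relative to the median of all genes, the fibrillar median was higher and the median of the other collagens lower in each of these scalings. With the Xist pattern as a covariate, the change rests on adenoma 1, the 1 adenoma of the controls' sex. The median log2 fold change was then -0.44 for the collagens, 1.30 for the fibrillar genes and 0.01 for all genes. Fewer genes were called there among the collagens and also over all genes, so the loss of calls was not particular to collagens. Collagens that lost their call with the covariate included Col3a1 (log2 fold change 0.79), Col5a1 (0.68), Col7a1 (1.23) and Col6a4 (-0.47). Col8a2, Col10a1, Col11a2, Col14a1, Col16a1, Col23a1, Col24a1 and Col28a1 lost theirs as well. Pan-epithelial scaling ended the calls of Col3a1, Col5a1, Col11a2, Col16a1, Col24a1 and Col28a1. Of 31 called collagens, 15 kept their direction and call in each alternative that gave them a value: Col1a1, Col1a2, Col4a1, Col4a2, Col4a3, Col4a4, Col4a6, Col5a2, Col5a3, Col6a5, Col8a1, Col9a2, Col9a3, Col12a1 and Col18a1.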

How the data were processed

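RNA of whole tissue was sequenced with TruSeq RNA v2 libraries, which do not mark strand, as paired ends, per the labels' protocols. The authors deposited raw counts per gene, and the submitters' processing notes name FastQC, TopHat2, HTSeq and GRCm38; no label states versions, annotation or strand setting. Reads of overlapping genes on opposite strands may not be separated, and 13 of the 44 collagens share some exon bases with another gene.

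Genes were filtered with filterByExpr, which kept 18345, scaled by TMM and tested with edgeR 4.0.16 in R 4.3.3 (robust quasi-likelihood fit, Benjamini-Hochberg adjustment over all genes tested, threshold 0.05), with glmTreat for changes past a factor of 2. CPM uses TMM library sizes, and the SE is the log2 fold change divided by the square root of F. The common biological coefficient of variation was 0.28. Lengths come from GENCODE M21. The scripts were tested on simulated data.

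The members, the classes and every other list were chosen with earlier results of these data known. Library values are given for collagens averaging 5 CPM or more and for called ones reaching 1 CPM, 36 in all. From each pathway list up to 4 members with the smallest adjusted p and the leading member of the minority direction are named. The alternatives covered other library scalings (RLE, upper quartile, total counts, or equal sums of pan-epithelial, fibroblast or smooth muscle markers), no filter, a filter of 5 CPM in 3 libraries, a replicate block, each library left out, wild type 1 and adenoma 5 both left out, genes that collect ribosomal RNA reads left out, the Xist pattern as a covariate, DESeq2 1.42.0 and limma-voom 3.58.1.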

Additional observations from a re-analysis of the deposited data

Results flagged for a closer look

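In 5 of 36 collagens 1 adenoma lay apart from the other adenomas by Dixon's test at the 95% level, which marks about 1 group in 20 by chance. Adenoma 2 was apart for Col5a3 with 42.7 CPM (the others 18.6 to 24.4), for Col10a1 with 2.91 CPM (1.12 to 1.54) and for Col28a1 with 11.0 CPM (2.03 to 3.03). Adenoma 4 was apart for Col9a2 with 15.6 CPM (7.94 to 9.51), and adenoma 5 for the X-linked gene Col4a5 with 17.7 CPM (10.5 to 12.2). Adenoma 2 is also the library with Hoxb13 at 246 CPM. Without adenoma 2, 19 collagens were called higher and 16 lower, in place of 17 and 14. Calls over all genes also grew, to 6184 higher and 6092 lower from 5558 and 5099.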

How the results depend on the processing

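Of 31 called collagens 15 kept direction and call under the alternatives that gave them a value; each of the other 16 lost its call under at least 1 scaling, filter, test, block, covariate or left-out library, and the cause of each move was not tested. The replicate block ended those of Col8a2, Col11a2 and Col24a1, no filter those of Col11a2, Col14a1 and Col24a1, and limma-voom those of Col11a2 and Col28a1. The replicate block gave 16 collagens higher and 12 lower, with 0 fibrillar genes lower and a fibrillar median of 1.29. Over all 18345 genes tested it gave 3345 higher and 3204 lower, against 5558 and 5099 without the block. The labels do not say whether replicate numbers pair the libraries. Between same-numbered libraries the deviations from the group means correlated at -0.018, 0.0513 and 0.0612. Among adenomas 1 to 3, the same-numbered one gave the highest correlation for wild type 2 and 3, and not for wild type 1. So few and small correlations cannot decide whether libraries were paired.

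Smooth muscle scaling left 4 collagens lower in place of 14, 0 fibrillar and 1 other collagen lower, and medians of 0.87 for all collagens, 2.61 for fibrillar, 0.75 for basement membrane and 0.42 for other genes. Under it Col24a1 (0.31), Col6a2 (0.41), Col6a4 (0.42), Col14a1 (0.016), Col13a1 (0.18), Colgalt2 (0.34), Adamts14 (0.0036) and Lair1 (0.088) turned positive, without a call, while the median of all genes was 1.08. Fibroblast scaling gave 5 basement membrane genes lower in place of 3 and medians of -0.45, 1.29, -0.64 and -0.92 in the same order. Pan-epithelial scaling gave 4 fibrillar genes higher in place of 7 and 0 lower, with medians of 1.35 for fibrillar and -0.61 for basement membrane genes. Total-count scaling, which moved the median of all genes to 0.12, and no filter each gave 0 fibrillar genes lower in place of 1, and the collagen median was 0.29 with no filter, 0.83 with a filter of 5 CPM (fibrillar 1.48) and 0.24 without ribosomal RNA genes. The covariate for sex gave 11 collagens higher and 8 lower, 4 fibrillar higher and 0 lower, 4 others higher and 5 lower, and medians of -0.44 for collagens and 1.30 for fibrillar genes. Without both wild type 1 and adenoma 5, 0 fibrillar genes were lower and the medians were 0.67 and 1.43. Leaving out 1 library at a time, 0 to 1 fibrillar genes were lower, and the collagen median ran from -0.11 to 0.63.

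In the pathway lists, pan-epithelial scaling left 3 cross-linking genes and 1 receptor higher in place of 7 and 4. Smooth muscle scaling raised the number of higher fibril partners from 2 to 7. Without adenoma 2 there were 4 fibril partners higher and 2 lower. The number of higher genes over all genes moved the same way. It was 5558 as reported, 1682 with pan-epithelial scaling, 9807 with smooth muscle scaling and 6184 without adenoma 2, where 6092 were lower. With the covariate fewer cross-linking genes were higher, and so were fewer of all genes. Depth limits Col4a3, Col4a4, Col9a2, Col9a3, Col11a1, Col25a1 and Col28a1, the 7 tested collagens with fewer than 20 counts in at least 1 library; the SE of the largest change, that of Col9a3, was 0.56.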

Other observations

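Other genes of collagen synthesis were picked after their values were seen. P4ha1 went from a mean of 15.5 ± 2.59 CPM (SD, n = 3) in wild type to 42.7 ± 9.30 CPM (SD, n = 5) in the adenomas, and Plod2 and Plod3, which hydroxylate collagen lysines, had log2 fold changes of 1.41 (edgeR adjusted p = 0.000731) and 1.30 (adjusted p = 0.000714). Serpinh1, the collagen chaperone HSP47, rose by 0.80 (adjusted p = 0.000217). P4hb, which also serves as a general protein disulfide isomerase, was not called, with 576 CPM in adenoma 2 and 1478 to 1768 CPM in the other adenomas. Fn1 was at 993 CPM in adenoma 2 and 198 to 282 CPM in the other adenomas, and Thbs2 at 103 CPM and 15.8 to 28.6 CPM.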
